A study of Mus musculus with 4 samples.

Results

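The HoxC cluster was examined by ChIP-chip, chromatin immunoprecipitation read out on a tiling array, in whole forelimb buds of mouse embryos at stage E10.5. Its probes were those placed on chromosome 15 between 102730000 and 102870000 in the array's own coordinates. The sources used here do not name the genome build. This gave 319 of the 473642 positioned probes of the series, in 7 of its 25006 tiled regions. All 319 sat on the second of the 2 designs of the array set, which held 236770. One array measured RING1B there and one measured the histone mark H3K27me3. Per the labels, the embryos were wild type and of strain BDF1, forelimb buds were pooled, and each array carried precipitated DNA against input DNA from the same tissue. Both DNA pools had been amplified. A pool holds every cell type of the bud, so a level stands for the mixture. There was 1 array per antibody and locus. No difference could therefore be tested against variation between embryos or precipitations, no p-value is given, and each SD below is over probes.

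RING1B is the catalytic core of Polycomb repressive complex 1, which ubiquitinates histone H2A, and H3K27me3 is the mark laid down by Polycomb repressive complex 2. Both complexes hold developmental genes silent in cells that do not use them, and Hox clusters are among their best-known targets. Hox genes encode homeodomain transcription factors that give cells their position along the body axis, and their order on the chromosome follows the order of their domains in the embryo. HoxC is known in limbs for its posterior genes, Hoxc9 to Hoxc13, some of which are used in the hindlimb and not in the forelimb, whereas the anterior genes Hoxc4 to Hoxc8 act at cervical to thoracic levels. The series as a whole addresses RING1 proteins in the early patterning of the forelimb bud.

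The 319 probes formed 7 tiled regions, numbered here from the low coordinate upwards. A tiled region is a run of probes that is broken wherever successive starts lie over 1000 bp apart. The regions measured 2.82 to 17.9 kb, were separated by gaps of 2.05 to 11.2 kb, and covered 59.0 kb of a span of 101 kb. The outermost 13.9 kb at the low end and 25.5 kb at the high end of the interval held no probe. The array files name no genes. In the RefSeq table of GRCm38 the order is Hoxc13, Hoxc12, Hoxc11, Hoxc10, Hoxc9, Hoxc8, Hoxc6, Hoxc5, Hoxc4, and only names, order and distances were taken from it. Regions 2, 3, 4, 5 and 7 started 15.5, 33.3, 45.7, 69.4 and 93.2 kb after region 1. The genes Hoxc12, Hoxc11, Hoxc10, Hoxc8 and Hoxc5 start 15.7, 33.4, 45.7, 69.4 and 92.9 kb after Hoxc13. Over these 6 regions the largest mismatch was 0.35 kb, against 3.74 kb for the next best of the 84 readings in gene order. Region 1 is therefore called the likely Hoxc13 region, and regions 2, 3 and 5 the likely Hoxc12, Hoxc11 and Hoxc8 regions. Region 4, at 17.9 kb, is longer than the 10.2 kb from Hoxc10 to Hoxc9 and likely holds both starts. Region 6 was left out of this match. It started 88.4 kb after region 1, 11.3 kb past the first listed start of Hoxc6 at 77.1 kb, and Hoxc6 ends at 90.8 kb, so region 6 falls to Hoxc6 by order alone. Region 7, at 7.34 kb, is longer than the 4.09 kb from Hoxc5 to the first listed start of Hoxc4. Regions 1, 2, 3 and 5, each tied to a single start, measure 7.53, 7.93, 7.82 and 7.66 kb. Unlike region 4, region 7 is no longer than these. It is therefore called the likely Hoxc5 region, and whether it also holds the first start of Hoxc4 is not settled. RefSeq also lists Hotair, a long noncoding RNA known from work on Polycomb, between Hoxc12 and Hoxc11, and no region was tied to it. This reading was made after the values were known, and no coordinate was converted between builds.

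Between Hoxc10 and Hoxc9, in the stretch that region 4 likely spans, RefSeq places the gene of miR-196a-2, a microRNA known for pairing with Hox transcripts. A second microRNA gene, Mir615, lies within the span of Hoxc5. Their mature sequences (RefSeq, GRCm38.p6) are shown because these are short products of the cluster, with the seed, bases 2 to 8, in capitals.
mmu-miR-196a-5p: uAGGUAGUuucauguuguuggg
mmu-miR-615-3p: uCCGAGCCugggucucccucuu
Of the 9 Hox members, the promoter table held Hoxc4, the member at the end of the cluster where the array values were lowest. Its 300 bases on the plus strand, chr15:103034145-103034444 of GRCm38.p6, cover a transcript start and the DNA before it. They begin 16.0 kb past the first listed start of Hoxc4, the one used for the spacing above, and so belong to another of its starts. CG dinucleotides are in capitals, since CG-rich DNA is the usual ground of Polycomb in vertebrates.
Hoxc4 promoter: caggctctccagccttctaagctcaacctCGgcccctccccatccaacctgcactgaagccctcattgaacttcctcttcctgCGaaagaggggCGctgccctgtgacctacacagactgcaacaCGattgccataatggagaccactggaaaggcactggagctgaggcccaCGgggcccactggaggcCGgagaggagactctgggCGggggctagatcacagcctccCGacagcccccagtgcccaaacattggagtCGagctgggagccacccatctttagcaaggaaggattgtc
This sequence holds 9 CG, and 45.8% of the 32851 promoters in the table hold at least as many. The median is 7. No probe could be placed on it.

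All values below are log2 ratios of the scanner's processed signals, Cy5 over Cy3, with the median of the array's kept probes set to 0. This direction opposes the labels, which put the precipitate in Cy3 and the input in Cy5. Read by the labels, every value changes its sign, and each high value would be a depletion. Probes were kept where both dyes were well above background and the spot was not marked as an outlier. For RING1B 308 of the 319 probes were kept and for H3K27me3 306. The 11 and 13 others were all not well above background in Cy3, while all were in Cy5, so their ratio is only a bound. As measured, the RING1B ratios of these probes lay between 3.21 and 6.01 and the H3K27me3 ratios between 1.92 and 5.57, within the range of the kept probes. None of the 319 was saturated.

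RING1B was high over the whole tiled HoxC cluster. Its 308 kept probes had a lowest value of 1.24, a median of 4.93 and a highest of 7.10, with a mean of 4.63 ± 1.24 (SD over probes), a 24.8-fold ratio. All 308 were at 2-fold or more, where 18.7% of the array's probes were, and 270 of them, 87.7%, were at 8-fold or more, against 4.34%. The median HoxC probe stood at percentile 98.7 of the array. Of the 308 probes, 120, or 39.0%, lay among the highest 1.0% of the array. H3K27me3 was high as well. Its 306 kept probes ran from 0.15 through a median of 4.24 to 6.33, with a mean of 3.93 ± 1.23, a 15.2-fold ratio. Of these, 298, or 97.4%, reached 2-fold (24.3% of the array) and 235, or 76.8%, reached 8-fold (8.51% of the array). The median probe stood at percentile 96.8, and 63 probes, 20.6%, were among the array's highest 1.0%. No kept HoxC probe was below the array median for either antibody. The size of the ratio depended on the processing: the means were 3.68 and 2.37 with normexp background correction and 3.54 and 2.83 with loess, RING1B first.

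Means of 3 neighbouring kept probes, termed windows, gave the same picture. A window was called where it exceeded 2.70 for RING1B (6.50-fold) and 2.90 for H3K27me3 (7.46-fold). These are the lowest thresholds at which tiled regions of the array under the negative value were at most 5 per 100 over the positive one. RING1B was called in 277 of 294 HoxC windows, 94.2%, against 5.15% of all windows of the array. H3K27me3 was called in 243 of 292, 83.2%, against 9.21%. All HoxC windows were at 2-fold or more for both antibodies, against 16.7% of the array's windows for RING1B and 26.4% for H3K27me3. In the labelled direction, Cy3 over Cy5, 0 HoxC windows reached 2-fold, against 12.0% and 20.1% of the array's windows. With dim probes kept, the array's threshold for RING1B rose to 4.55 and 64.5% of HoxC windows exceeded it, against 1.61% of the array.

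**Figure D1:**
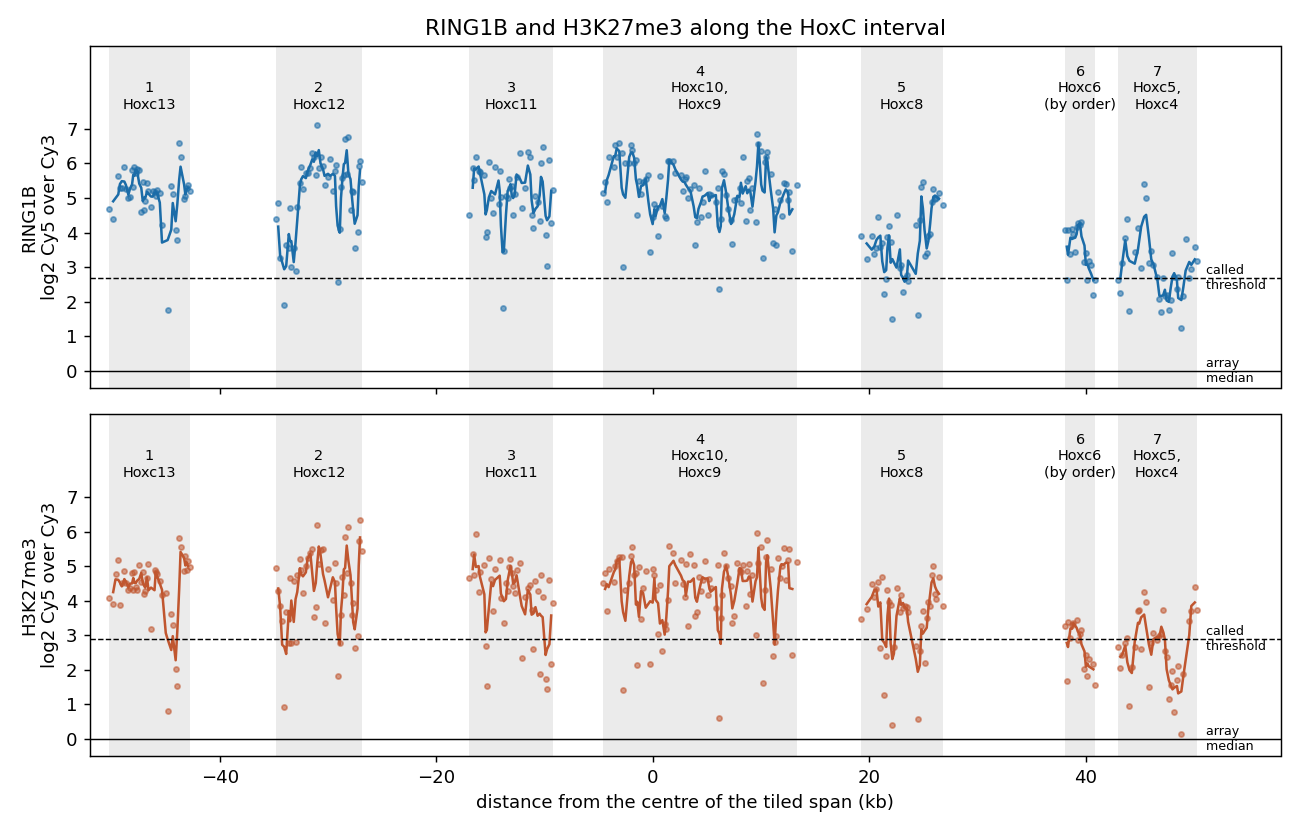
RING1B (upper panel) and H3K27me3 (lower panel) along the HoxC interval, as log2 Cy5 over Cy3 against the distance in kb from the centre of the tiled span. Points are kept probes, lines are means of 3 neighbouring probes, and the dashed line is the called threshold of the array (2.70 and 2.90). Grey bands are the 7 tiled regions with their likely genes (Hoxc6 by order alone, and Hoxc4 in region 7 not settled). Every point lies above the array median at 0, and regions 5 to 7 lie lower than regions 1 to 4 for both antibodies.

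The posterior side of the cluster, regions 1 to 4, carried the highest values. In region 1, the likely site of Hoxc13, a gene known for its role in hair and nails, RING1B averaged 5.12 ± 0.77 over 40 probes and H3K27me3 4.34 ± 0.99 over 41. In region 2, the likely site of Hoxc12, one of the most posterior genes of the cluster, the means were 5.09 ± 1.19 (46 probes) and 4.33 ± 1.18 (46 probes). In region 3, the likely site of Hoxc11, a gene of the hindlimb and the lumbosacral body, they were 5.07 ± 0.96 (43 probes) and 4.09 ± 1.14 (41 probes). These 3 regions differed from each other by far less than their SDs. In region 4, the likely site of Hoxc10, known for lumbar motor neurons and the hindlimb, and Hoxc9, known for thoracic identity, the means were 5.18 ± 0.89 (92 probes) and 4.35 ± 1.04 (91 probes).

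RING1B was called in every window of regions 1 to 4: 38 of 38, 44 of 44, 41 of 41 and 90 of 90. Of the 6892 tiled regions of the array with at least 10 windows, 47 were called throughout in this way. H3K27me3 was called in 36 of 39, 40 of 44, 36 of 39 and 87 of 89 windows of these regions. Ranked by mean among 9801 regions with a value for both antibodies, regions 1 to 4 stood at 18, 21, 24 and 13 for RING1B and at 18, 20, 43 and 17 for H3K27me3. Ranked by their highest window they stood lower for RING1B, at 92, 44, 85 and 28. For RING1B these regions thus ranked higher by their mean than by their peak. For H3K27me3 the ranks by highest window were 62, 6, 86 and 30, so region 2 ranked higher by its peak.

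The highest RING1B windows were in regions 4 and 2. They were 6.59 ± 0.25 from 102803821 to 102804263, 6.43 ± 0.22 from 102790707 to 102791147, both in the likely Hoxc10 and Hoxc9 region, and 6.39 ± 0.64 from 102763167 to 102763542 in the likely Hoxc12 region. H3K27me3 on the same probes was 5.53 ± 0.44, 5.14 ± 0.13 and 5.57 ± 0.58. All 3 of the highest H3K27me3 windows were in the likely Hoxc12 region. The first, 5.83 ± 0.46 from 102767014 to 102767340 at the very end of the tiling, was the sixth highest region peak of the array and had RING1B at 5.82 ± 0.33. The others were 5.59 ± 0.69 from 102765757 to 102766120 and the RING1B peak named above.

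Within these regions the level was not flat. In the likely Hoxc12 region, RING1B averaged 3.61 ± 1.13 and 3.74 ± 0.81 in the first 2 kb from the low end, then 5.61 ± 0.26 in the next and 6.16 ± 0.51 in the one after. H3K27me3 went from 3.51 ± 1.37 and 3.72 ± 1.03 to 4.91 ± 0.41 and 4.91 ± 1.03 over the same steps. In the likely Hoxc13 region, a dip lay 5 to 6 kb from the low end, at 4.09 ± 2.01 for RING1B (3 probes) and 2.99 ± 1.50 for H3K27me3 (4 probes). The last step returned to 5.24 ± 0.14 and 5.07 ± 0.18 (4 probes each). For RING1B the large SD of the dip comes from a single low probe, 1.77, the lowest of the region, beside 5.36 and 5.12. For H3K27me3 the low values went on past this step. Successive probes from 102749362 to 102750298 had 0.81, the lowest of the region, then 3.61, 3.30, 2.01 and 1.52. Cy3 on these probes of the H3K27me3 array was 11.2, 10.7, 10.7, 11.4 and 11.3, above the region median of 10.2. The likely Hoxc11 region ended with 4.52 ± 1.18 for RING1B and 2.78 ± 1.41 for H3K27me3.

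The anterior side, regions 5 to 7, was lower for both antibodies. In region 5, the likely site of Hoxc8, a gene of the thoracic skeleton and of brachial motor neurons, RING1B averaged 3.73 ± 1.04 over 36 probes and H3K27me3 3.54 ± 1.09 over 37. In region 6, given to Hoxc6 by order, the means were 3.49 ± 0.68 (18 probes) and 2.67 ± 0.66 (16 probes). In region 7, the likely site of Hoxc5, a gene of cervical and upper thoracic levels, they were 2.93 ± 0.94 (33 probes) and 2.59 ± 1.02 (34 probes). Whether region 7 also reaches the first start of Hoxc4 is not settled. For RING1B the means of regions 5, 6 and 7 fall in the order of the genes, but neighbours in that order differ by less than their SDs. For H3K27me3 regions 6 and 7 were close, and region 5 stood above them by 0.87 and 0.95, which is within its SD of 1.09.

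These regions were still high for the array. They stood at ranks 98, 114 and 159 of 9801 for RING1B, and at 143, 489 and 534 for H3K27me3. RING1B was called in 31 of 34, 15 of 16 and 18 of 31 of their windows. H3K27me3 was called in 26 of 35, 6 of 14 and 12 of 32. All 17 HoxC windows not called for RING1B lay here, as did 37 of the 49 not called for H3K27me3. Each of the 7 HoxC regions held at least 1 called window for both antibodies, against 7.85% of the array's regions for RING1B and 14.1% for H3K27me3.

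For RING1B the largest step between neighbouring regions lay between regions 4 and 5, the likely positions of Hoxc9 and Hoxc8, where the means differed by 1.45. For H3K27me3 the decline was spread over 2 steps, 0.81 from region 4 to 5 and 0.87 from region 5 to 6, the first within the SDs of both regions and the second within that of region 5 but above the 0.66 of region 6. Over the 221 RING1B probes of regions 1 to 4 the values ran from 1.77 through a median of 5.25 to 7.10. Over the 87 of regions 5 to 7 they ran from 1.24 through 3.39 to 5.46. The ranges overlap, and the means, 5.13 ± 0.95 and 3.38 ± 0.99, differed by -1.75. For H3K27me3 the 219 probes of regions 1 to 4 ran from 0.60 through 4.56 to 6.33 and the 87 of regions 5 to 7 from 0.15 through 3.06 to 4.99. The means, 4.30 ± 1.08 and 3.01 ± 1.09, differed by -1.29. This division was chosen after the values were seen. Cutting the interval at its midpoint, 102800000, gave 3.90 ± 1.24 on the Hoxc4 side against 5.15 ± 0.95 on the Hoxc13 side for RING1B, a difference of -1.25. For H3K27me3 it gave 3.44 ± 1.28 against 4.28 ± 1.06, a difference of -0.84. The differences between the region sets exceed the SDs over probes, while the H3K27me3 difference across the midpoint is within them. None can be set against variation between embryos. With loess the differences between the sides of the midpoint were smaller, at -0.88 and -0.57. Those between the region sets were smaller too, at -1.25 for RING1B and -0.91 for H3K27me3, the latter within the SDs above.

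Inside the likely Hoxc8 region the antibodies parted over some steps. RING1B averaged 3.12 ± 1.00 at 2 to 3 kb from the low end, 2.68 ± 0.085 at 4 to 5 kb, 4.40 ± 0.74 at 6 to 7 kb and 4.98 ± 0.18 at 7 to 8 kb. H3K27me3 was 2.99 ± 1.66, 3.77 ± 0.094, 4.20 ± 0.57 and 4.20 ± 0.43 at these steps. They held 7, 3, 6 and 3 kept probes for each antibody, so the small SDs rest on few probes. At 5 to 6 kb, RING1B was 4.05 ± 1.43 and H3K27me3 was at its lowest of the region, 2.50 ± 1.08. On the 6 probes of this step, Cy3 of the H3K27me3 array was 10.24, 13.17, 10.02, 10.71, 11.44 and 11.48. The region median was 10.19. Cy5 of that array was 13.14, 13.96, 12.76, 14.16, 15.33 and 13.87, on both sides of the region median of 14.15. The low H3K27me3 ratio of this step thus came with a bright Cy3 on most of its probes, and the reason was not tested. At 7 to 8 kb, the end facing Hoxc6, both antibodies came close to their means over regions 1 to 4, 5.13 and 4.30. In region 6 both were lower in the last kb, at 2.74 ± 0.40 and 1.97 ± 0.33, than in the first, at 3.67 ± 0.55 and 2.98 ± 0.66.

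The lowest windows of the cluster for both antibodies were in region 7. For RING1B they were 2.00 ± 0.22 from 102841674 to 102842106, 2.05 ± 0.75 from 102842740 to 102843265 and 2.17 ± 0.49 from 102841002 to 102841411. For H3K27me3 they were 1.32 ± 1.03 from 102842629 to 102843082, 1.43 ± 0.59 from 102842052 to 102842421 and 1.91 ± 0.86 from 102838247 to 102838778. The same region held a RING1B peak of 4.51 ± 1.21 from 102839595 to 102840080 and, at the last probes of the tiling, an H3K27me3 window of 3.95 ± 0.40. The signal had thus not ended where the tiling ended, and the last window was 3.23 for RING1B. At the other end, the first window of the likely Hoxc13 region was 4.91 for RING1B and 4.25 for H3K27me3. Neither edge of the high stretch was therefore within the probes.

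Beyond the cluster the region means were near or below the array median, except for H3K27me3 in the regions 145 and 237 kb away on the high side. The 5 nearest tiled regions on the low side, 190 to 287 kb away, had RING1B means from -0.53 to 0.0011 and H3K27me3 means from -1.10 to -0.76, with 0 called windows. On the high side the nearest region lay 145 kb away. It averaged 0.34 ± 1.37 for RING1B and 1.23 ± 1.84 for H3K27me3 and held 3 and 4 called windows. Of the next 4, at 220 to 264 kb, none held a called window. One of them, 237 kb away, had H3K27me3 at 1.32 ± 0.85 with RING1B at 0.12 ± 0.97. The other 3 had H3K27me3 means from -1.38 to -1.13.

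**Figure D2:**
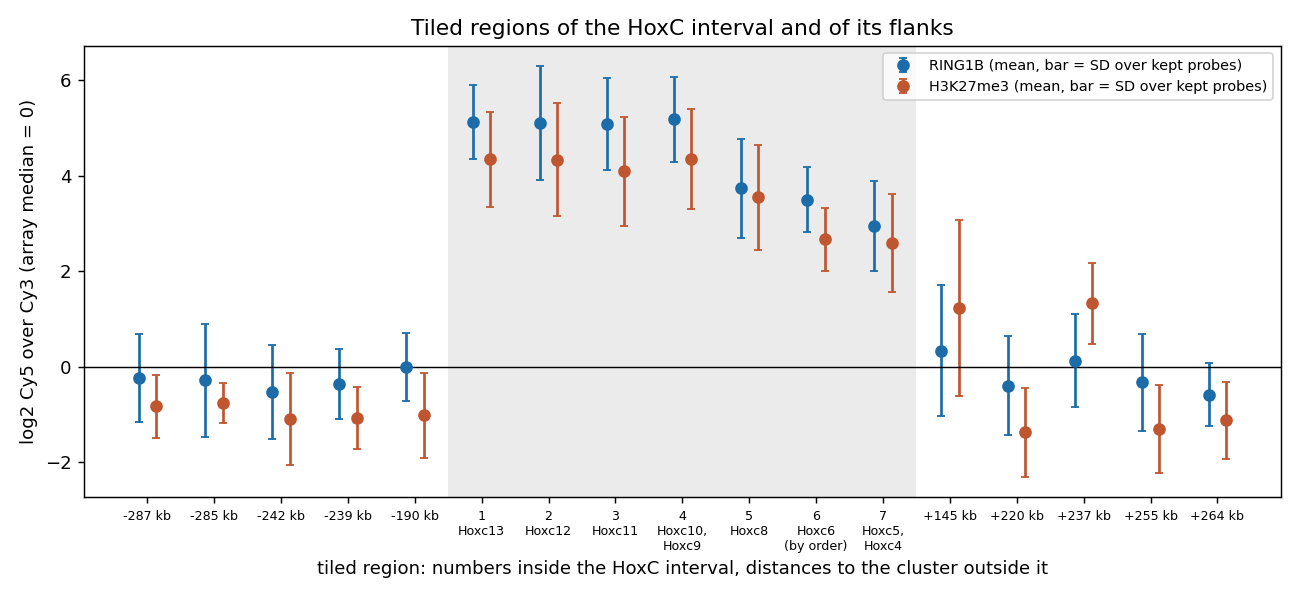
Mean log2 Cy5 over Cy3 of each tiled region, with bars for the SD over kept probes, for RING1B (blue) and H3K27me3 (orange). The shaded part holds the 7 HoxC regions with their likely genes (Hoxc6 by order alone, and Hoxc4 in region 7 not settled). The 5 nearest regions on each side are marked by their distance in kb. HoxC means lie between 2.59 and 5.18, and flanking means between -1.38 and 1.32.

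Along the cluster RING1B stood above H3K27me3 on most probes. Over the 300 probes kept on both arrays, RING1B minus H3K27me3 ran from -1.51 through a median of 0.71 to 2.67, with a mean of 0.71 ± 0.75. RING1B was the higher on 257 probes, 85.7%, against 52.7% of the 178359 such probes of the array. It was higher by at least 2-fold on 99 and lower by at least 2-fold on 8. The array's share at this cut was not taken, so these counts describe HoxC only. Among the 755 regions of the array with called windows for both antibodies, the median difference of the means was -0.63, while the 7 HoxC regions had 0.19 to 0.98 and stood at percentiles 81.5 to 96.3 of that set. The antibodies have no common scale, so the difference is one of array ratios and not of occupancy. With normexp background correction the mean difference was 1.32.

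The excess of RING1B was unequal along the cluster. Region means differed by 0.78, 0.76, 0.98 and 0.82 in regions 1 to 4 and by 0.83 in region 6, but by 0.19 and 0.34 in regions 5 and 7. RING1B was the higher on 20 of 36 probes of the likely Hoxc8 region and on 21 of 32 of region 7, against 40 of 41 in the likely Hoxc11 region and 16 of 16 in region 6. The largest excess of RING1B was 2.06 ± 0.42 from 102784016 to 102784467 in the likely Hoxc11 region (4.49 ± 1.78 against 2.43 ± 1.46). It was followed by 2.05 ± 0.22 from 102749835 to 102750298 in the likely Hoxc13 region (4.33 ± 0.70 against 2.28 ± 0.92) and 1.88 ± 0.15 from 102818872 to 102819203 in the likely Hoxc8 region (5.05 ± 0.59 against 3.16 ± 0.58). All 3 lie where H3K27me3 was below the mean of its region. On each probe of these windows, Cy3 was brighter on the H3K27me3 array than on the RING1B array. In the likely Hoxc13 window, Cy3 was 8.66, 9.87 and 9.34 on the RING1B array and 10.69, 11.42 and 11.29 on the H3K27me3 array. Cy5 there was 13.78, 13.95 and 13.12 against 14.18, 13.63 and 13.01. On each probe of the likely Hoxc11 window, Cy5 was also lower on the H3K27me3 array. The cause of the Cy3 difference was not tested. The largest excess of H3K27me3 also lay in the likely Hoxc8 region, 1.7 kb from the RING1B excess there. It was -1.25 ± 0.23 from 102817139 to 102817515 (2.68 ± 0.39 for RING1B against 3.93 ± 0.20). The other 2 were in region 7, at -1.08 ± 0.21 from 102841002 to 102841411 and -0.78 ± 0.05 from 102843767 to 102844334.

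Probe by probe the antibodies followed each other, with r = 0.817 and rho = 0.801 over the 300 probes, against r = 0.673 over the array. Within single regions r ran from 0.612 in the likely Hoxc8 region and 0.641 in region 7 to 0.890 in region 6. These are descriptions across probes, which are not replicates. Both arrays share the probe sequences and the kind of input, and neighbouring probes share fragments.

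**Figure D3:**
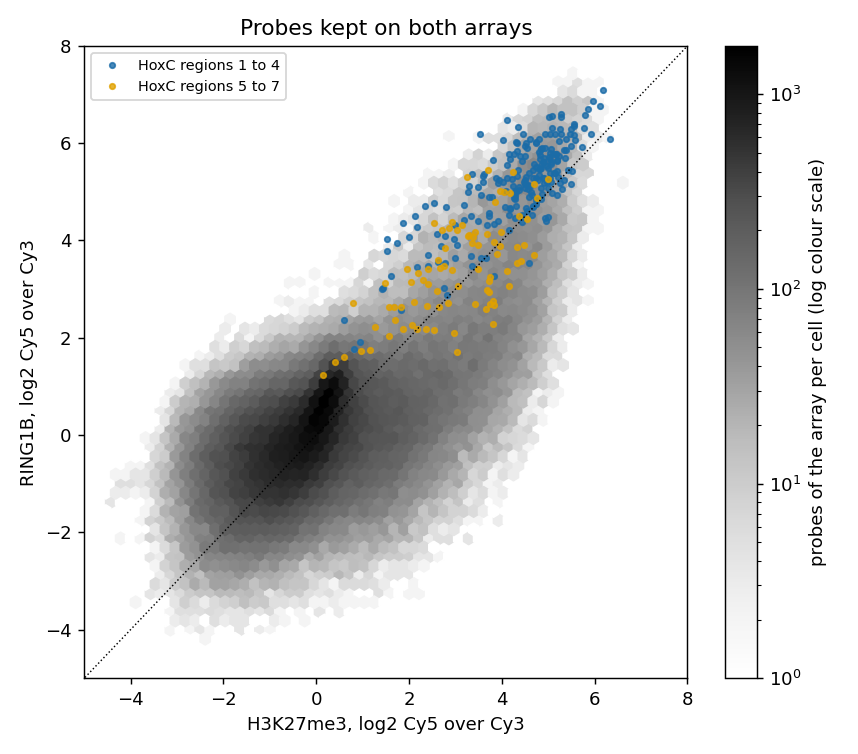
RING1B against H3K27me3, both as log2 Cy5 over Cy3, for the 178359 probes kept on both arrays (grey cells, log colour scale) and for the 300 HoxC probes among them (blue for regions 1 to 4, yellow for regions 5 to 7). The dotted line marks equal values. The HoxC probes lie in the upper right, and 257 of the 300 are above the line.

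The dyes were also read apart. On the RING1B array the median HoxC probe was at 14.8 in Cy5, on the log2 scale of the processed signal, which is 4.95 above the median kept probe, and at 9.87 in Cy3, 0.017 above it. On the H3K27me3 array it was at 14.5 in Cy5, 4.13 above, and at 10.2 in Cy3, 0.073 above. The high ratios over HoxC thus came with high Cy5 and a Cy3 near the middle of the array. The lower values of regions 5 to 7 were seen in Cy5, where the RING1B array had region medians of 15.0 to 15.2 in regions 1 to 4 and 13.4, 12.9 and 12.6 in regions 5, 6 and 7. For H3K27me3 these were 14.8 to 15.0, then 14.1, 12.3 and 12.9, so on that array the largest step in Cy5 lay between regions 5 and 6. In Cy3 the medians stayed between 9.36 and 10.02 on the RING1B array and between 9.54 and 10.3 on the H3K27me3 array, lowest in region 6 on both. Single probes could depart from these medians. The lowest H3K27me3 probe of the cluster, 0.15 in region 7, had 13.2 in Cy3 and 13.6 in Cy5. The region medians there were 9.85 and 12.9, so this low ratio came with a bright Cy3. Across all 319 probes the arrays correlated with r = 0.848 in Cy3 and 0.906 in Cy5.

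**Figure D4:**
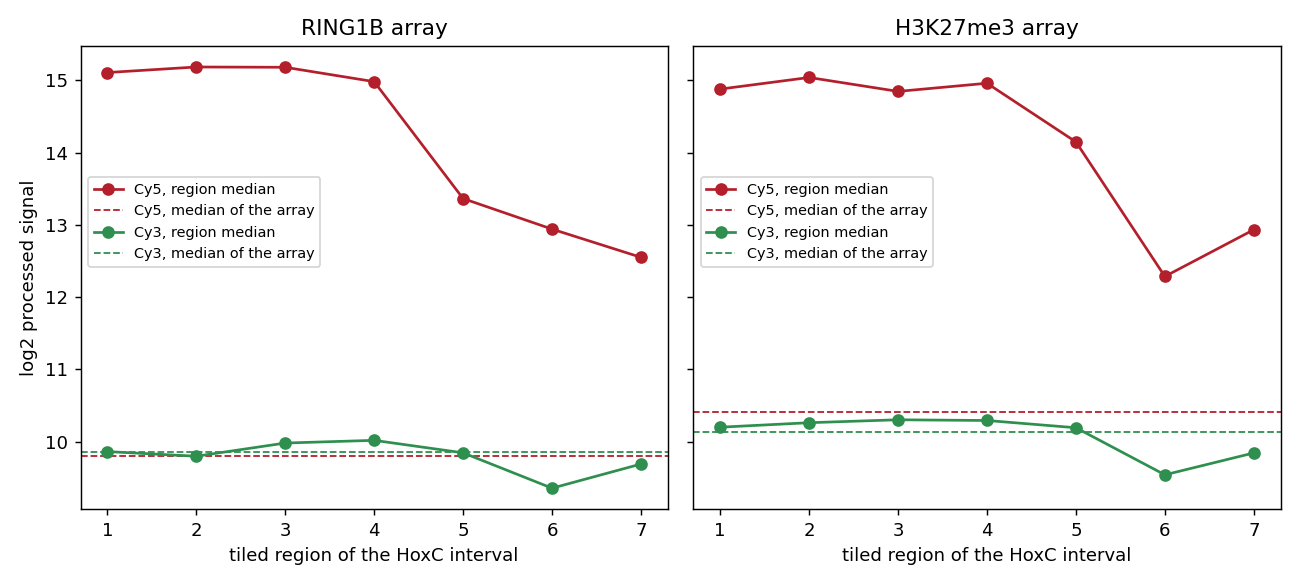
Median log2 processed signal of Cy5 (red) and Cy3 (green) in each of the 7 HoxC regions, on the RING1B array (left) and the H3K27me3 array (right). Dashed lines are the medians of all kept probes of the array. Cy5 lies 1.87 or more above its array median in every region, while Cy3 lies within 0.59 of its own.

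Called windows no farther than 20 kb apart were merged into domains. All 7 HoxC regions fell into 1 domain for each antibody, from the first probe to the last. The gaps between these regions, at most 11.2 kb, are shorter than the 20 kb allowed. The single domain thus bridges stretches without probes and does not show an unbroken signal. The HoxC domain held more called windows than any other domain of the 4 arrays, for RING1B and for H3K27me3. This count depends on how many probes tile a domain. By the share of windows called, HoxC, at 94.2% and 83.2%, was below the chromosome 2 domain for both antibodies. The next 3 by RING1B windows were on chromosome 6 (110 kb), chromosome 2 (43.1 kb) and chromosome 11 (58.1 kb). The chromosome 11 domain, measured on the same arrays, had 147 of 161 windows called for RING1B, 91.3%, with a mean of 3.91 ± 1.15, and 98 of 159 for H3K27me3, 61.6%, with a mean of 3.23 ± 1.19. HoxC stood above it for both antibodies, but the difference of means is smaller than the SD over probes. The chromosome 2 domain, on the other design, resembled HoxC in RING1B, at 4.62 ± 1.25 with 96.6% of windows called, and was at 4.34 ± 1.05 for H3K27me3 with 95.6% called. The chromosome 6 domain was lower, at 3.26 ± 1.53 and 3.03 ± 1.45, with 61.3% and 54.1% of windows called. RING1B exceeded H3K27me3 by 0.70 in HoxC, 0.69 on chromosome 11, 0.28 on chromosome 2 and 0.23 on chromosome 6. The pair with the larger gap sits on design 2 and the pair with the smaller on design 1, so array and locus cannot be told apart there. None of these differences could be tested.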

How the data were processed

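Members were chosen by position, with earlier results of these data known, and so were the lists, thresholds and rules. Per the labels, precipitate and input DNA were amplified with T7 RNA polymerase in a pair of rounds and put on 2-colour arrays. Per the file headers, the authors extracted scans with Agilent Feature Extraction 10.1.1.1. The processed signals are intensity values with spatially detrended background subtracted, multiplicative detrending and linear dye normalization; the median signals and local backgrounds are uncorrected intensity values. The log ratios and errors in the files are on the log10 scale, per the file headers. The value tables the authors deposited hold log2 ratios that were not centred (medians -0.12 for RING1B and 0.018 for H3K27me3), and 99.9% and 99.8% of their values lay within 0.001 of the scanner's ratio, Cy5 over Cy3.

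Here log2 ratios of processed signals were centred on the median of kept probes, with no loess or quantile step. Control spots, outlier spots and dim probes (either dye not well above background) were left out. The scanner's own error of a HoxC ratio had a median of 0.51 and 0.47 on the log2 scale for RING1B and H3K27me3. Depth does not apply to arrays, whose number, 1 per antibody, limits the precision. Regions described are all tiled regions of the interval, the 3 highest and lowest windows and the 3 largest differences between antibodies in each direction. Python 3.11.15, pandas 2.3.3, R 4.3.3 and limma 3.58.1 (normexp, loess) were used. Window and threshold code was tested on simulated data. Alternatives covered background correction, loess, outliers, dim probes, the deposited table, centring, edges, windows, thresholds and the dyes as labelled.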

Additional observations from a re-analysis of the deposited data

How the results depend on the processing

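No paired analysis was possible because the numbers 1 and 2 in the titles are designs with different probes, so each antibody had 1 array over HoxC and no replicate to leave out. With the dyes as labelled the 2 means became -4.63 for RING1B and -3.93 for H3K27me3, RING1B minus H3K27me3 became -0.71, the differences across the midpoint 1.25 and 0.84, and those of the region sets 1.75 and 1.29. No called threshold was reached in that direction, so it gives no share of windows. In the direction used here, no difference or mean changed sign under any alternative. The mean was 3.68 for RING1B and 2.37 for H3K27me3 with normexp and 3.54 and 2.83 with loess, and 4.11 for H3K27me3 without a filter on dim probes. RING1B minus H3K27me3 was 1.32 with normexp. The differences across the midpoint were -0.88 and -0.57 with loess, and those of the region sets -1.25 and -0.91. The share of called windows is given RING1B first, with the share over all windows of the array in brackets. It was 100% and 94.5% (13.6% and 14.7%) with normexp and 84.4% and 65.8% (3.74% and 5.46%) with loess. With no dim filter it was 64.5% and 75.1% (1.61% and 6.22%). With probes above background in at least 1 dye it was 64.1% and 73.1% (1.63% and 5.95%). Windows of 5 probes gave 98.6% and 92.8% (6.89% and 11.9%), and the 2-fold threshold gave 100% for both (16.7% and 26.4%). For RING1B it was 90.5% with medians of 3 probes (4.58%) and also at 8-fold (4.40%). For H3K27me3 it was 88.4% with centring on autosomal probes (10.4%). The thresholds move with the setting, from 0.65 with normexp to 4.55 without the dim filter. A value was taken as moved when it left the 95% Wilson interval of the share, which covers counting error only, or shifted by over 1 SD of repeated control spots. Of 89 such comparisons 57 stayed within these limits. Some of these could hardly move. The deposited table holds nearly the same ratios, and centring cancels in differences between parts of the same array. Keeping outlier spots added no HoxC probe, since the only outlier there was also dim. Leaving out 20 kb at each end removed no probe at the high end, where the last 25.5 kb held none. The loss of 11 and 13 probes dim in Cy3 limits what is known of the ratio there.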
